A study of Mus musculus with 6 samples.

Results

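The 10 genes described here encode the proteins with which a cell detects double-stranded RNA, edits or reacts to it, and passes the signal on: Ddx58 (also written Rigi), Ifih1, Dhx58, Tlr3, Zbp1, Eif2ak2, Adar, Mavs, Ticam1 and Tbk1. They were chosen by name, as receptors and partners that could meet a transfected RNA duplex, and with earlier results of these data known. All 10 were found among the 55401 mouse gene identifiers of the count table, and all 10 were among the 14661 genes with enough reads to be tested. The RNA came from ADC106 cells, a mouse angiosarcoma line (a tumour of vessel-lining cells), which had received 12.5 nM of the mimic labelled NC, or of a mimic of miR-497, and were collected on day 3. A mimic is a synthetic RNA duplex, so both groups received duplex RNA. The control group is labelled WT and the other miR-497 overexpression, with 3 libraries in each. Cells without a mimic were not analysed here, so each value compares one duplex with another and no level without transfection is known. Whether the 3 libraries of a group came from separate cultures is not stated, and the p-values measure only the spread between these libraries.

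Double-stranded RNA longer than a cell normally makes is a sign of viral infection. In the cytosol it is bound by the RIG-I-like receptors RIG-I (Ddx58) and MDA5 (Ifih1), which signal through the mitochondrial adaptor MAVS, and in endosomes by TLR3, which signals through TRIF (Ticam1). Both adaptors recruit the kinase TBK1, which phosphorylates IRF3 and so starts transcription of type I interferon. Several of the sensors, as well as PKR (Eif2ak2) and ADAR, are themselves raised by interferon through a promoter element called ISRE, which makes the sensors both a source and a target of the interferon response.

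The miR-497 guide is shown first, since the 10 transcripts were searched for sites that pair with its seed. The mature mouse miR-497a-5p in RefSeq (build GRCm38.p6) is given with its seed, bases 2 to 8, in capitals; the sequence of the mimic itself is not given in the sources used here.
mmu-miR-497a-5p: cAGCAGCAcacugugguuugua
A site was counted where a 3' UTR held TGCTGCT (the reverse complement of the seed; called an 8mer where A follows) or GCTGCTA. None of the 10 genes held either word in its longest annotated 3' UTR, whose lengths ran from 273 bases (Dhx58) to 2575 bases (Eif2ak2). For scale, 28.1% of the 12859 tested genes with an annotated 3' UTR held at least 1 site.

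Promoters of the 10 genes were searched for the ISRE core (GAAA, any 2 bases, GAAA, on either strand) and for the GAS core TTCNNNGAA, a palindrome found in genes induced by interferon gamma. RefSeq windows of 250 bases before to 50 bases after an annotated start (build GRCm38.p6) were matched for 8 of the 10 genes, all but Dhx58 and Zbp1, with 3 windows for Adar and 1 for each other gene. The ISRE core was present in 3 of these 10 windows, those of Ddx58, Ifih1 and Eif2ak2, and in 3.44% of all 32851 RefSeq windows. Each match lay just after the start, at bases 3 to 12 for Ddx58, 33 to 42 for Ifih1 and 19 to 28 for Eif2ak2, where 1 is the first transcribed base. These 3 windows are printed 5' to 3' on the gene's strand, with the ISRE core in capitals.
Ddx58, chr4:40239776-40240075, minus strand: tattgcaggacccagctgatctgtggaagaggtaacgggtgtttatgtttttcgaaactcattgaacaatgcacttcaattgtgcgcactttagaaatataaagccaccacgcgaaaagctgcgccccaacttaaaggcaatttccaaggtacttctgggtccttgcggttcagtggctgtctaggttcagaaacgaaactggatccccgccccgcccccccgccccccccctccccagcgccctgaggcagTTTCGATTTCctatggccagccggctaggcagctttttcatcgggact
Ifih1, chr2:62646206-62646505, minus strand: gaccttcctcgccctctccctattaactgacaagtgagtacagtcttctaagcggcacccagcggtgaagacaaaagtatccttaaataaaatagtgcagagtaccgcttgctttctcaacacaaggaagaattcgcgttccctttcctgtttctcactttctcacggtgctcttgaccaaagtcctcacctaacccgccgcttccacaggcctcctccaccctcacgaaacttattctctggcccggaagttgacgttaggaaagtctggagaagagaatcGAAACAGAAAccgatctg
Eif2ak2, chr17:78882523-78882822, minus strand: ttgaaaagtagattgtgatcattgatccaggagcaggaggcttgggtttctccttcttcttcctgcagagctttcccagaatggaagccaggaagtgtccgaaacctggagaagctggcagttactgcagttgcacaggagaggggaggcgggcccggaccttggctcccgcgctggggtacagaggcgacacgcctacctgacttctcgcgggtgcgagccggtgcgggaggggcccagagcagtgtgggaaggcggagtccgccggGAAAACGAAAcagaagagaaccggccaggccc
The GAS core was present in the Eif2ak2 window, at -178 to -170, and in the third Adar window, at 23 to 31, and in 8.30% of all windows. The 2 motifs do not overlap in any of these windows. A match is a description of the letters and not evidence of binding, and a window without a match says only that these letters are not in it.

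**Figure D1:**
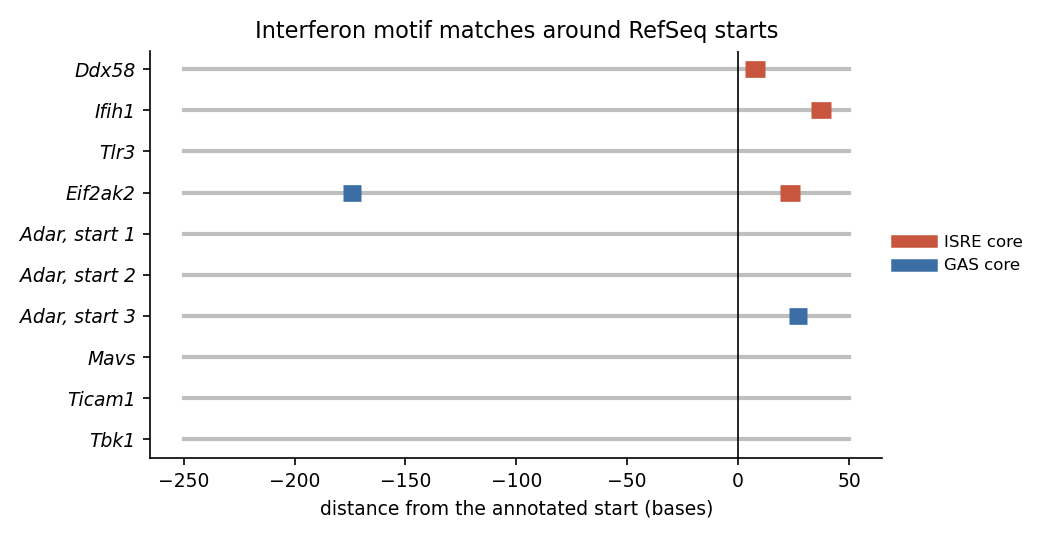
Position of ISRE core (red) and GAS core (blue) matches in the RefSeq promoter windows (grey) of 8 genes; the x axis is the distance in bases from the annotated start, and Adar has 3 starts. ISRE core matches appear for Ddx58, Ifih1 and Eif2ak2, each within the first 42 transcribed bases.

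Library totals ran from 25777676 to 36159499 counts. All 8 endothelial markers examined, Pecam1, Cdh5, Kdr, Tek, Tie1, Vwf, Erg and Emcn, were above 1 CPM on average in both groups, with a summed level of 8342 to 9048 CPM in NC and 8183 to 8628 CPM in miR-497 libraries. Of these 8, 6 were higher with miR-497 and 1 lower: Pecam1, the most abundant with NC, fell to 69.5% of the NC mean, while Emcn rose 2.05-fold and Vwf 1.75-fold. CPM, the unit of level used for single genes, is a count scaled to a fixed library size after TMM normalization. Leukocyte markers summed to 9.59 to 10.7 CPM in NC and 15.9 to 21.2 CPM in miR-497 libraries over 9 genes; Itgam and Cd3e were at 0 in all libraries and Cd68 made up most of the sum. Fibroblast markers (6 genes) summed to 279 to 300.5 and 437 to 524 CPM, with Lum at 0 and Dcn near 0. Col1a1 and Col1a2 were higher (log2 fold changes 0.84 and 1.15), Pdgfrb was lower (-0.37) and Pdgfra was not called (0.10). Their part in the results was not tested. In bulk RNA, fewer cells with a transcript and less transcript per cell cannot be told apart.

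Of the 10 genes, 8 were lower and 2 were higher after the mimic of miR-497. The call is an adjusted p under 0.05 from edgeR (quasi-likelihood F test, Benjamini-Hochberg method, over all 14661 genes). Of all tested genes, 49.8% passed this threshold, 26.0% lower and 23.8% higher. Falls of at least 2-fold were found for 6 of the 10 genes and for 5.19% of all tested genes. The 3 miR-497 libraries lay on one side of the 3 NC libraries for all 10 genes, and for 57.4% of tested genes (29.6% below and 27.8% above), so this separation by itself does not set the 10 apart. The median log2 fold change (miR-497 over NC, as everywhere below) was -1.11 for the 10 genes and -0.02 for all tested genes. The 10 were chosen with earlier results of these data known, so these contrasts describe them and are no test. All 5 sensors and both effectors that act on double-stranded RNA fell, and the adaptors Mavs and Ticam1 rose. The kinase Tbk1 fell by the smallest amount. Whether direction goes with role was not tested.

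**Figure D2:**
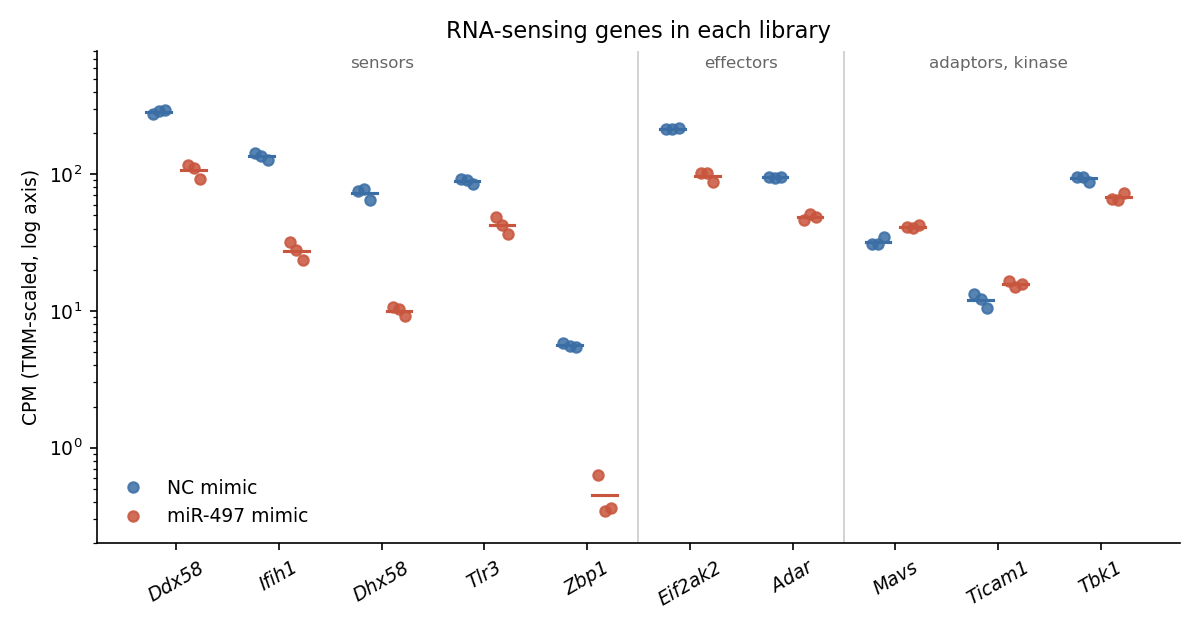
Level of each gene in every library, in CPM on a log axis; points are libraries, short bars the means of 3, blue NC mimic and red miR-497 mimic. The red points lie below the blue points for all genes except Mavs and Ticam1, where they lie above.

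**Figure D3:**
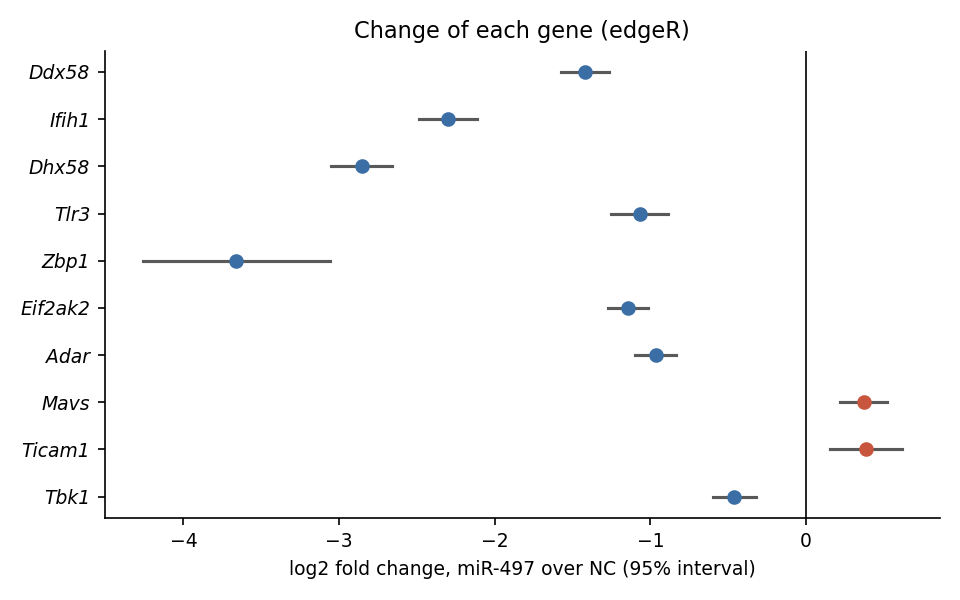
Log2 fold change of each gene (dot; blue lower, red higher) with its 95% interval from the edgeR fit. Zbp1, Dhx58 and Ifih1 lie furthest to the left, and the intervals of Mavs and Ticam1 lie right of 0.

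Among the RIG-I-like receptors, which share a helicase core, Ddx58 (ENSMUSG00000040296; chromosome 4, 40203773 to 40239828, minus strand, build GRCm38) encodes RIG-I, which binds short duplexes with a 5' triphosphate. The NC libraries held 276, 289 and 295 CPM, against 117, 111 and 92.8 CPM after miR-497. Every miR-497 library was far below the lowest NC library. On the log2 scale the difference was -1.42 (SE 0.0715, edgeR adjusted p = 1.1e-10), a fall of 2.68-fold with a 95% interval of 2.41 to 2.97, and 386 of the tested genes fell further.

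Ifih1 (ENSMUSG00000026896; chromosome 2, 62595798 to 62646255, minus strand) encodes MDA5, which assembles into filaments on long duplexes. It was measured at 143, 136 and 128 CPM with NC, and at 31.9, 27.7 and 23.5 CPM with miR-497. The groups did not overlap, and the highest miR-497 value was far below the lowest NC value. MDA5 RNA was left at 20.4% of the NC mean (log2 fold change -2.30, SE 0.0882, edgeR adjusted p = 4.5e-12). Dhx58 (ENSMUSG00000017830; chromosome 11, 100694884 to 100704271, minus strand) encodes LGP2, which lacks the signalling domains of the other two and modulates them. Its values were 75.5, 77.6 and 64.8 CPM with NC and 10.7, 10.4 and 9.12 CPM with miR-497. All 3 miR-497 libraries lay close together and far below the NC libraries, of which the third was lowest. LGP2 RNA was left at 13.8% of the NC mean (log2 fold change -2.86, SE 0.0913, edgeR adjusted p = 4.4e-13), and 69 of the tested genes fell further. Opposite-strand exons of Dhx58os cover 4.31% of the exon bases of Dhx58, and the strand setting of the counting is not given in the sources used here.

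Whether the 3 receptors fell by unequal amounts was examined as ratios within each library, as log2 CPM to which a prior count of 2 had been added. The log2 ratio of Ifih1 to Ddx58 was -0.94, -1.08 and -1.202 with NC and -1.87, -2.001 and -1.98 with miR-497, a shift of -0.88. For Dhx58 to Ddx58 the ratio went from -1.87, -1.89 and -2.18 to -3.45, -3.41 and -3.34, a shift of -1.42. For Dhx58 to Ifih1 the values were -0.92, -0.81 and -0.98 with NC and -1.57, -1.41 and -1.36 with miR-497, a shift of -0.54. In none of the 3 ratios did the groups overlap, so in these libraries LGP2 fell most, MDA5 less and RIG-I least. Each exact 2-sided permutation test gave p = 0.1, and 0.1 after Benjamini-Hochberg adjustment over the 3 ratios, which is the smallest value that 3 against 3 allows and cannot pass 0.05.

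Tlr3 (ENSMUSG00000031639; chromosome 8, 45395665 to 45411080, minus strand) encodes the endosomal receptor for double-stranded RNA. Its level was 91.9, 91.0 and 84.6 CPM with NC and 48.9, 42.3 and 36.6 CPM with miR-497. All miR-497 libraries were below all NC libraries, and the third was lowest in both groups. The fall was 2.10-fold (95% interval 1.85 to 2.38; log2 fold change -1.07, SE 0.0857, edgeR adjusted p = 2.6e-08). Exons of Gm45542 on the other strand cover 7.32% of its exon bases. Among other endosomal receptors, Tlr7 was at 0.904 to 1.42 CPM, Tlr8 and Tlr9 had 0 to 6 counts per library, and Tlr13 is described with its list below.

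Zbp1 (ENSMUSG00000027514; chromosome 2, 173206612 to 173218923, minus strand) encodes a sensor of left-handed (Z-form) nucleic acid that can start necroptosis. It was the scarcest of the 10 genes, with 193, 202 and 153 counts after NC and 16, 11 and 11 after miR-497. In CPM the values were 5.82, 5.53 and 5.43, against 0.637, 0.346 and 0.361. The NC libraries were nearly alike, and no miR-497 library came near them. This was the deepest fall of the 10, 12.6-fold, and the low counts leave a wide 95% interval of 8.33 to 19.2 (log2 fold change -3.66, SE 0.284, edgeR adjusted p = 1.7e-08). Only 37 of the tested genes fell further.

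Eif2ak2 (ENSMUSG00000024079; chromosome 17, 78852564 to 78882573, minus strand) encodes PKR, the kinase that halts translation by phosphorylating eIF2 alpha when it binds double-stranded RNA. Its level was 213, 215 and 219 CPM with NC and 103, 102 and 87.7 CPM with miR-497, a fall of 2.21-fold (95% interval 2.02 to 2.42; log2 fold change -1.14, SE 0.0616, edgeR adjusted p = 2.2e-10). The spread within groups was small beside this difference, with SDs of 3.30 and 8.61 CPM (n = 3). Opposite-strand exons cover 4.32% of its exon bases.

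Adar (ENSMUSG00000027951; chromosome 3, 89715022 to 89753446, plus strand) encodes the enzyme that changes adenosine to inosine in duplex RNA and so keeps the cell's own duplexes from MDA5 and PKR. Its values were 95.5, 94.5 and 95.4 CPM with NC and 45.9, 51.3 and 48.8 CPM with miR-497. The NC libraries were nearly identical, and the groups did not overlap. The RNA fell to 51.2% of the NC mean (log2 fold change -0.97, SE 0.0616, edgeR adjusted p = 1.7e-09), close to but short of 2-fold. The table counts the interferon-inducible and the constitutive transcript of Adar together, so the change of each is not known. Chrnb2, on the other strand, covers 16.8% of the exon bases of Adar, more than for any other of the 10 genes.

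The adaptors went the other way. Mavs (ENSMUSG00000037523; chromosome 2, 131234063 to 131248025, plus strand) encodes the mitochondrial membrane protein on which RIG-I and MDA5 converge. It was at 30.9, 30.7 and 34.6 CPM with NC and at 41.1, 40.7 and 42.5 CPM with miR-497. All 3 miR-497 libraries were higher than all 3 NC libraries, by 1.29-fold in the fit (log2 fold change 0.37, SE 0.0724, edgeR adjusted p = 0.00041). Ticam1 (ENSMUSG00000047123; chromosome 17, 56269319 to 56276786, minus strand) encodes TRIF, the adaptor of TLR3. Its level was 13.3, 12.3 and 10.6 CPM with NC and 16.4, 15.05 and 15.9 CPM with miR-497. The groups did not overlap, and it rose by 1.31-fold (log2 fold change 0.39, SE 0.108, edgeR adjusted p = 0.007). Rises of the size seen for the adaptors were common: 21.1% of tested genes had a log2 fold change at least as high as that of Mavs and 20.3% at least as high as that of Ticam1.

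Tbk1 (ENSMUSG00000020115; chromosome 10, 121546455 to 121586787, minus strand) encodes the kinase that both adaptors recruit. It was measured at 95.8, 95.8 and 87.8 CPM with NC and at 66.0, 64.6 and 72.5 CPM with miR-497, with no overlap between the groups. This was a fall to 72.7% of the NC mean (log2 fold change -0.46, SE 0.0640, edgeR adjusted p = 1.4e-05). The 95% interval of the fold was 1.25 to 1.51. A fall at least this deep was seen for 20.6% of tested genes.

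The promoter matches shown above can be set beside these values. Ddx58, Ifih1 and Eif2ak2, whose windows held the ISRE core, had log2 fold changes of -1.42, -2.30 and -1.14. The 5 matched genes without the exact core had log2 fold changes of -1.07 (Tlr3), -0.97 (Adar), -0.46 (Tbk1), 0.37 (Mavs) and 0.39 (Ticam1). The 3 genes with the core were the 3 deepest falls of the 8, an order that was seen after the values were known and was not tested. Near matches were not counted, and the windows of Adar and Tlr3 hold letters close to the core. These 5 genes therefore cannot be said to lack an ISRE. Zbp1 and Dhx58 fell further than any of the 8 but had no matched window.

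Levels of different genes were compared per kilobase of exon (RPKM, over the merged exons of each gene in GENCODE M21). With NC, Eif2ak2 stood highest at 42.2 ± 0.645 RPKM and Ddx58 next at 40.6 ± 1.38 RPKM (SD, n = 3), and their libraries overlapped. Tbk1 (23.8 ± 1.18 RPKM) and Dhx58 (22.2 ± 2.10) also overlapped, as did Tlr3 (17.1 ± 0.759) and Ifih1 (16.6 ± 0.942). Adar (11.7 ± 0.0702), Mavs (9.59 ± 0.66), Ticam1 (4.03 ± 0.459) and Zbp1 (1.59 ± 0.0571 RPKM) followed, each below the one before in all 3 libraries.

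With miR-497 the order of levels was different. Eif2ak2 (19.1 ± 1.68 RPKM), Tbk1 (17.3 ± 1.09) and Ddx58 (15.2 ± 1.79) led, each overlapping the next. Mavs, at 12.4 ± 0.281 RPKM, came next, above Tlr3 (8.18 ± 1.19), Adar (5.997 ± 0.334) and Ticam1 (5.28 ± 0.233) in all libraries. Ifih1 (3.39 ± 0.515) and Dhx58 (3.07 ± 0.251) overlapped below Ticam1, and Zbp1 was lowest at 0.127 ± 0.0464 RPKM (SD, n = 3). On this measure Ifih1 and Dhx58 were above both adaptors in every NC library and below both adaptors in every miR-497 library. The merged length counts exons of all annotated transcripts of a gene, 8165 bases for Ifih1 and 2992 for Ticam1. The order of different genes therefore depends on the length used, and other lengths were not tried.

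**Figure D4:**
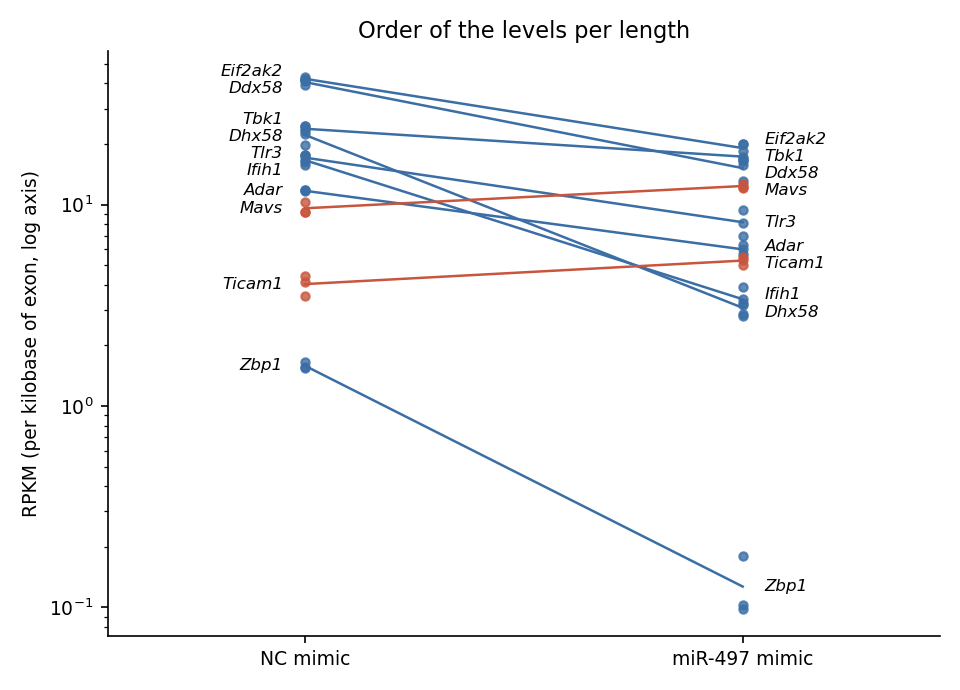
Level per kilobase of exon (RPKM, log axis) of each gene with NC mimic and with miR-497 mimic; points are libraries and lines join the group means, red for the 2 genes that rose and blue for the 8 that fell. Lines of Ifih1 and Dhx58 cross those of Mavs and Ticam1.

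The balance of receptor to adaptor transcripts followed from these levels. Ddx58 was 4.23, 4.46 and 4.04 times as abundant as Mavs per kilobase after NC, and 1.35, 1.297 and 1.04 times after miR-497. The ratio of Ifih1 to Mavs was 1.90, 1.82 and 1.51 with NC and 0.318, 0.279 and 0.226 with miR-497. For the endosomal pair, Tlr3 to Ticam1, it was 3.97, 4.25 and 4.59 with NC and 1.71, 1.61 and 1.32 with miR-497. The groups did not overlap in any of these 3 ratios, which were described after the values were seen and were not tested. On the log2 scale the group means differed by -1.80 for Ddx58 to Mavs, -2.67 for Ifih1 to Mavs and -1.47 for Tlr3 to Ticam1. The exon lengths used cancel in these differences, but not in the ratios themselves. The cytosolic and the endosomal receptors thus both lost ground to their adaptors, MDA5 by the largest amount of the 3 pairs.

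Libraries of a group were close to each other for most of the 10 genes. In the miR-497 group, library 3 was the lowest for 5 of the 10 genes (Ddx58, Ifih1, Dhx58, Tlr3 and Eif2ak2) and library 2 for 4 genes. Within the NC group, library 3 was the lowest for 6 genes. For Ticam1 the 3 NC libraries spanned a wider range (10.6 to 13.3 CPM) than the gap from the highest of them to the lowest miR-497 library (15.05 CPM), so its separation is the narrowest in relation to its spread.

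The genes around the 10 were described by lists of the pathway, written from general knowledge with earlier results of these data known. Of 14 cofactors of RIG-I and MDA5, 10 were lower, 0 higher and 4 did not pass. Over all tested genes the shares were 26.0% lower and 23.8% higher. The middle value of the log2 fold changes (median) was -0.40 in this list and -0.02 over all tested genes. One of the 10 lower genes, Zcchc3, passed narrowly (edgeR adjusted p = 0.0495), and its groups overlapped. Under DESeq2 size factors, upper-quartile scaling, a mean count of at least 50 or the DESeq2 Wald test, 1 cofactor was higher. Ddx60, a helicase reported to help RIG-I-like receptors, fell most (38.5 ± 7.08 to 7.42 ± 1.40 CPM, SD of 3 libraries; log2 fold change -2.37, edgeR adjusted p = 6.6e-10). Ywhah, a 14-3-3 protein that chaperones MDA5, fell from 429 ± 17.7 to 144 ± 23.7 CPM (-1.57 on the log2 scale), and Zc3hav1, the antiviral zinc finger protein ZAP, from 259 ± 3.59 to 141 ± 8.43 CPM (-0.87).

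Of 15 proteins that restrain MAVS or the signalling through it, 8 were lower and 4 higher, beside 26.0% and 23.8% of all tested genes. The mitochondrial protein Nlrx1 went from 2.68 ± 0.322 to 1.04 ± 0.0382 CPM (SD of 3 libraries; log2 fold change -1.36), and Tnfaip3 (A20) and Mfn2 fell by 0.82 and 0.70 on that scale. The ubiquitin ligase Rnf5, which marks MAVS for degradation, rose from 14.3 ± 1.98 to 26.2 ± 2.60 CPM (log2 fold change 0.88, edgeR adjusted p = 3.9e-06). Opposite-strand exons cover 24.7% of the exon bases of Rnf5 and 11.9% of those of Nlrx1, and the strand setting of the counting is not known. Smaller rises were found for Atg12 (0.31) and for the ligase Itch (0.22, edgeR adjusted p = 0.0063; 0.17 and 0.0571 without NC library 1, so that call rests on this library). Without NC library 1 the count of 4 higher genes became 2.

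Among 14 genes that carry the signal from MAVS and TRIF to IRF3, 3 were lower and 5 higher. Of all tested genes, 26.0% were lower and 23.8% higher. Irf7, the interferon-induced partner of IRF3, fell from 79.4 ± 8.07 to 10.8 ± 1.28 CPM (SD of 3 libraries; log2 fold change -2.87, edgeR adjusted p = 8.3e-13). Traf3, the ubiquitin ligase between MAVS and TBK1, fell from 31.7 ± 0.252 to 16.8 ± 0.277 CPM (-0.91), and Irf3 from 53.7 ± 2.14 to 37.7 ± 1.497 CPM (-0.51). Higher values were found for Ikbkg (NEMO), at 43.8 ± 0.757 and 78.7 ± 5.53 CPM (log2 fold change 0.85), for the TBK1-related kinase Ikbke (0.57), for Optn (0.56), for Tradd and for Traf6.

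The OAS family also detects double-stranded RNA, and answers it by making a small nucleotide messenger. Of the list of 15 genes of this branch, 11 were tested, and 7 were lower and 0 higher, all 7 by at least 2-fold. Over all tested genes, 26.0% were lower, 5.19% lower by at least 2-fold, and 23.8% higher. Oas1g, Oas2 and Oas1a fell most, with log2 fold changes of -5.72 (95% interval -6.93 to -4.51), -5.26 (-5.98 to -4.55) and -4.68 (-5.08 to -4.29). Without miR-497 library 1 the value for Oas1g became -6.496, and without library 3 it became -5.14, while that for Oas2 became -5.87 without library 3. Oas1g had no read in 1 miR-497 library, and reads shared among the near-identical Oas1 copies make the values of Oas1g and Oas1a uncertain.

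Around PKR, 4 of 10 tested genes were lower and 3 higher, beside 26.0% and 23.8% of all tested genes. The other eIF2 alpha kinases went different ways: Eif2ak3 (PERK) rose from 39.7 ± 5.95 to 54.9 ± 2.26 CPM (SD of 3 libraries; log2 fold change 0.47, edgeR adjusted p = 0.00031), Eif2ak4 (GCN2) fell by 0.51 on the log2 scale, and Eif2ak1 was at 66.9 ± 3.04 and 70.9 ± 2.49 CPM (0.08, 95% interval -0.05 to 0.22). Ppp1r15a, the phosphatase subunit that reverses PKR's mark, rose from 18.4 ± 1.48 to 37.3 ± 1.14 CPM (log2 fold change 1.01), while its constitutive relative Ppp1r15b fell by 0.30 and Atf4 by 0.71.

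Of the 7 partners of ZBP1 in cell death, 3 were lower and 1 higher, beside 26.0% and 23.8% of all tested genes. Mlkl, the executor of necroptosis, fell from 189 ± 8.81 to 128 ± 7.82 CPM (SD of 3 libraries; log2 fold change -0.56), and Ripk1 and Cflar fell by 0.34 and 0.32. Casp6 rose from 10.4 ± 0.0547 to 18.5 ± 0.401 CPM (0.84). Ripk3, which ZBP1 binds directly, was low in both groups at 3.85 ± 1.02 and 3.599 ± 0.439 CPM, with a 95% interval of -0.59 to 0.39 for its log2 fold change.

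Among 15 other proteins that bind double-stranded RNA, 4 were lower and 4 higher, beside 26.0% and 23.8% of all tested genes. The remaining 7 did not pass, and the median was 0.04. Tarbp2, the Dicer partner that also inhibits PKR, fell from 69.9 ± 4.06 to 23.4 ± 2.02 CPM (SD of 3 libraries; log2 fold change -1.58, edgeR adjusted p = 1e-10), and Ilf2 and Stau2 fell by 0.50 and 0.39. Adarb1, the relative of Adar that edits mainly neuronal transcripts, rose from 18.9 ± 1.10 to 28.8 ± 2.84 CPM (0.61, edgeR adjusted p = 2.8e-05), against the fall of Adar. Cdkn2aip rose by 0.31 and Dgcr8 by 0.20, but the count of 4 higher genes dropped to 2 with the replicate block, without a filter on low counts, and without NC library 1, NC library 2 or miR-497 library 2, and rose to 6 with upper-quartile scaling.

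Of 6 tested genes that clear nucleic acid or sense DNA, 4 were lower (3 without miR-497 library 2) and 1 was higher, beside 26.0% and 23.8% of all tested genes. The dNTP hydrolase Samhd1 went from 107 ± 3.10 to 49.1 ± 3.11 CPM (SD of 3 libraries; log2 fold change -1.12), the DNA sensor gene Mb21d1 (cGAS) from 37.5 ± 1.195 to 17.3 ± 0.349 CPM (-1.12), and its adaptor Tmem173 (STING) from 160 ± 7.73 to 114 ± 5.02 CPM (-0.49). The gene that rose was Rnaseh2a, a subunit of RNase H2 (0.33). Of the 12 genes of endosomal Toll-like receptors and their helpers, 8 were tested. Of these, 1 was lower and 1 higher, beside the same shares of all tested genes. The genes called were Cnpy3, a chaperone (log2 fold change -0.82), and Tlr13, a receptor for bacterial ribosomal RNA, at 4.71 ± 0.646 and 11.1 ± 1.37 CPM (1.23). The count of lower genes became 2 without NC library 2 or miR-497 library 1, and that of higher genes became 2 with upper-quartile scaling or without miR-497 library 3.

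**Figure D5:**
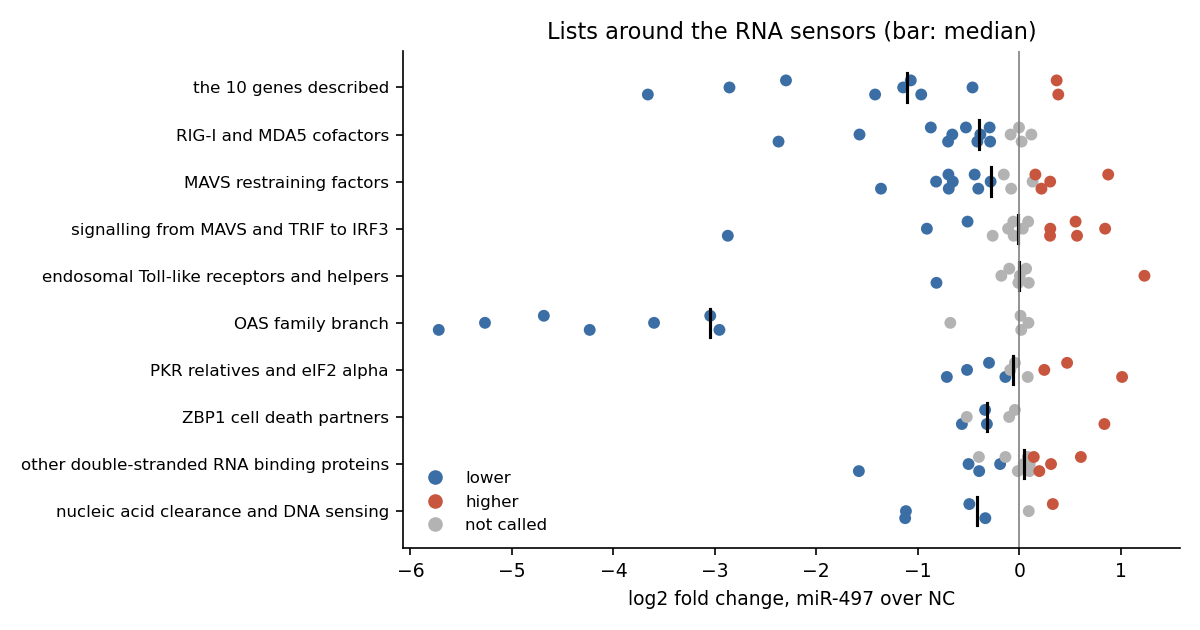
Log2 fold change of each tested gene (dots) in the 10 genes described and in 9 pathway lists; blue is lower, red higher and grey not called at an adjusted p of 0.05, and the black bar is the list's median. The OAS list has the lowest median of the lists shown, and the adaptor-to-IRF3 list lies on both sides of 0.

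In contrast to the 10 genes, 33 of the 100 tested pathway genes with an annotated 3' UTR held a miR-497-5p site, and 20 of these 33 were lower and 5 higher. The 5 higher genes with a site were Rnf5, Adarb1, Ikbke, Traf6 and Itch. Of the 67 without a site, 24 were lower and 14 higher. Over all tested genes, 1481 of 3617 with a site were lower and 658 higher. Without a site, 2175 of 9242 were lower and 2613 higher. Whether any site acted was not tested. Sites of 3 pathway genes that fell are printed from GENCODE M21 transcripts (build GRCm38), with the site in capitals, to set it beside the seed shown above; the last A of an 8mer belongs to the site and does not pair with the guide, which starts with c. Tarbp2 held 1 site in 334 bases, Nlrx1 an 8mer in 501 bases, and Traf3 5 sites in 5093 bases, of which 1 is shown.
Tarbp2, chr15:102523573-102523600, plus strand: gtcctgaataaaTGCTGCTctttggctt
Nlrx1, chr9:44252731-44252758, minus strand: gtgggcccacctTGCTGCTAttaaaaag
Traf3, chr12:111267047-111267074, plus strand: atgtttctgttcTGCTGCTAataataaa

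The product of the pathway, interferon itself, was near the limit of detection. Of 19 type I and III interferon genes, 14 were at 0 in all 6 libraries and none had enough reads for the filter. Ifnb1 had 9, 26 and 4 counts after NC and 0, 7 and 0 after miR-497. Ifna4 had 2, 11 and 5 counts with NC and 0 in each miR-497 library, where a count of 0 allows up to 3 counts, or 0.0944 to 0.119 CPM, by counting error alone. When no filter was used, the edgeR adjusted p was 0.0443 for Ifnb1 and 0.0197 for Ifna4. Reads of the interferon alpha genes can be shared between near-identical copies.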

How the data were processed

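The authors deposited raw counts per Ensembl gene for 6 poly(A) RNA libraries. The submitters' processing notes name GRCm38, STAR 2.5.4b, featureCounts, Subread 1.6.1 and edgeR 3.32.1, without order. The annotation release, strand setting and handling of multi-mapping reads are not given in the sources used here.

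Genes were filtered with filterByExpr (minimum count 10, minimum total 15), scaled by TMM and tested in edgeR 4.0.16 (R 4.3.3) with the quasi-likelihood test and Benjamini-Hochberg adjustment over 14661 genes, threshold 0.05. Library totals were 25777676 to 36159499, and the common biological coefficient of variation was 8.78%. CPM, RPKM (merged GENCODE M21 exons), SEs and 95% intervals were computed from the deposited counts. The procedure was tested on simulated data. The 13 alternatives were other scalings and filters, a replicate block, leaving out each library, DESeq2 1.42.0 and limma 3.58.1 voom.

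The 10 genes and the pathway lists were chosen with earlier results of these data known. Named pathway genes are up to 3 called genes per list and direction, by size of change and with a mean of at least 1 CPM, plus relatives chosen after their values were seen.

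Many genes of these lists are counted without being named, and some results are not reported here.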

Additional observations from a re-analysis of the deposited data

How the results depend on the processing

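All 10 sensors and adaptors kept their direction and their side of the threshold under all 13 alternatives, 130 of 130 results. Their log2 fold changes ranged over the alternatives from -1.49 to -1.33 for Ddx58, -2.41 to -2.19 for Ifih1, -2.92 to -2.79 for Dhx58, -1.18 to -0.97 for Tlr3, -1.18 to -1.07 for Eif2ak2, -3.97 to -3.50 for Zbp1, -0.51 to -0.41 for Tbk1, 0.33 to 0.44 for Mavs and 0.31 to 0.45 for Ticam1, whose largest adjusted p was 0.0322. For Adar they ran from -1.005 to -0.92. Over all genes the count of lower genes ran from 3374 to 3995 and of higher genes from 3029 to 3998.

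The labels do not say whether libraries with equal replicate numbers share a day or dish. Deviations of same-numbered libraries correlated at -0.12, -0.035 and -0.13. No pairing was seen in these values, but they cannot show that none exists. With the replicate block 8 of the 10 genes were lower and 2 higher, with 3563 lower and 3177 higher genes in all. Of the named pathway genes, Dgcr8 lost its call under 5 alternatives (adjusted p 0.0571 without a filter, 0.0620 with the block and 0.106 to 0.197 on leaving out libraries). The number of libraries limits the receptor ratios, and low counts limit Zbp1 and the interferons.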

Other observations

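Myd88, the adaptor of most Toll-like receptors, the translation factor subunit Eif2s2 and the DNA exonuclease Trex1 were listed at 0 in all 6 libraries. Since Eif2s2 is needed by every cell, no level can be read from these entries.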
